A study of Mus musculus with 16 samples.

Results

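The neurofilament genes Nefm and Nefl lie side by side on mouse chromosome 14, and their DNA methylation was followed in 8 conditions of E14 mouse embryonic stem cells (mESCs). The 60 kb region chr14:68695000-68755000 (mm9) was selected on these data, because Nefm carried less methylation in OP-mESCs than in YP-mESCs and in β-catenin-silenced than in control mESCs. These contrasts are therefore given as a description, with no test. The region holds 875 CpGs in the reference genome. Of these, 137 were covered by at least 10 reads on a strand in 1 or more of the 16 libraries and 43 in all 16, out of 1320646 and 329078 CpGs in the whole series.

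All cells were E14 (129/Ola) mESCs. The stem cells were grown in serum with LIF and measured by reduced representation bisulfite sequencing (RRBS), in which an unmethylated cytosine is read as thymine, so that the share of reads that keep a cytosine is the methylation level of a CpG. There were 2 replicates per condition. YP-mESCs had been cultured for 14 passages and OP-mESCs for about 70. OP-S33Y #1 and OP-S33Y #2 were a pair of clones of YP-mESCs that overexpressed β-catenin with the stabilizing S33Y mutation and were then kept to old passage. Each clone is 1 line, so clone and mutation cannot be told apart. YP-mESCs transduced with a control hairpin (mESC shCtrl) or with a hairpin against β-catenin (mESC shβcat #1) were measured as stem cells and as embryoid bodies, the aggregates formed after LIF removal, at day 8 (EB shCtrl and EB shβcat #1). The study's legends call the replicates biological, but the labels do not say how they were separated. The p-values below apply to these samples only. They rest on the counting error of the reads, scaled by 1 replicate spread shared by all CpGs, not on the spread at each CpG.

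The libraries held 18919219 to 40519010 reads on CpGs, and 47 to 123 CpGs of the region. OP-mESC replicate 2 covered the fewest. The 8 shRNA libraries covered 87 CpGs of the region in common, whereas YP-mESC, OP-mESC and clone libraries shared 43. Over the 329078 shared CpGs of the genome, the mean level was 24.4% in YP-mESCs, 21.09% in OP-mESCs, 27.04% in mESC shCtrl and 28.1% in mESC shβcat #1. It was 24.73% in OP-S33Y #1, 23.56% in OP-S33Y #2, 31.44% in EB shCtrl and 31.27% in EB shβcat #1. The methylation level at the region thus has to be read beside a genome-wide level that also differed between conditions.

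Neurofilaments are the intermediate filaments of neurons. They fill large axons and set their calibre. The light chain encoded by Nefl forms the core of the filament, and the medium chain encoded by Nefm and the heavy chain encoded by Nefh assemble with it and carry long tails that project from it. Their genes are typically active in neurons and silent in stem cells, but their expression was not measured in these libraries. Methylation of a CpG-rich promoter is a mark of stable silencing, yet many silent developmental genes in stem cells have unmethylated promoters. β-catenin is the effector of canonical Wnt signaling and acts in the nucleus through TCF/LEF factors.

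In the mm9 annotation (GENCODE M1), Nefm (ENSMUSG00000022054.5) lies on the minus strand at chr14:68700647-68742903 and Nefl (ENSMUSG00000022055.7) on the plus strand at chr14:68701920-68707152. The long Nefm transcript runs through Nefl, and the short one ends at 68737340, so only the long form overlaps Nefl. The 43 CpGs covered in all libraries fell into a cluster at each gene start. The Nefm cluster (chr14:68742576-68743008) had 21 CpGs, of which 10 were in the coding part of exon 1, 1 at the first transcribed base and 10 upstream. The Nefl cluster (chr14:68702009-68702156) had 22 CpGs, of which 20 were in the coding part of exon 1 and 2 in the 5′ UTR. The other covered CpGs were mostly in Nefm exon 1 and intron 1, in the 1 kb upstream of Nefm, and in intergenic DNA on both sides.

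The sequence just upstream of Nefl (chr14:68701881-68701919, mm9, plus strand), which holds a TATAAA match, is shown 5′ to 3′. Capitals mark the 5 CpGs that lie wholly in it and were read in 15 libraries, all but OP-mESC replicate 2. Of a 6th such CpG only the cytosine, the last base, is in the sequence, in lower case.
Nefl upstream: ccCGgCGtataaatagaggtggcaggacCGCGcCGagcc
Both promoters are CpG-rich. The window from 1000 bp before to 500 bp after the start held 98 CpGs at Nefm (observed over expected 0.72) and 84 at Nefl (0.77), against a median of 48 (0.48) over 22087 protein-coding promoters. TATAAA, the core of the TATA box, occurred once within 50 bp upstream of each start, on either strand, as in 3.94% of all promoters. TGCCGC, the hexamer read by ZFP57, had 1 match on both strands together in each 1501 bp window, as did 37.9% of promoters in 1 or more copies. ATCAAAG, a TCF/LEF motif, had no match in the Nefm window and 1 in the Nefl window, at 287 bp into the gene, and 18.3% of promoters held it. A match or its absence says only which letters stand in the window.

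The Nefm start was partly methylated in most conditions and its level differed widely between them, whereas the Nefl start was almost free of methylation in every library. As the mean over the 21 CpGs, Nefm was methylated at 36.1% and 44.6% in the YP-mESC replicates and at 4.4% and 8.5% in the OP-mESC replicates. The clones had higher levels than OP-mESCs, 69.1% and 63.7% for OP-S33Y #1 and 41.5% and 39.3% for OP-S33Y #2. OP-mESCs thus lay below all other libraries and OP-S33Y #1 above them. Nefm had 24.7% and 25.3% in mESC shCtrl, and 10.7% and 9.1% in mESC shβcat #1. In embryoid bodies the values were 29.1% and 32.4% in EB shCtrl, and 19.4% and 19.1% in EB shβcat #1. In both the stem cells and the embryoid bodies, the shβcat #1 libraries lay below their controls and the groups did not overlap.

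Ordered by mean, OP-S33Y #1 (66.4% ± 3.8, SD, n = 2) stood first, followed by OP-S33Y #2 (40.4% ± 1.6) and YP-mESCs (40.3% ± 6.1). EB shCtrl (30.7% ± 2.3), mESC shCtrl (25% ± 0.5), EB shβcat #1 (19.2% ± 0.3), mESC shβcat #1 (9.9% ± 1.1) and OP-mESCs (6.5% ± 2.9) came next. OP-S33Y #2 and YP-mESCs overlapped. The other neighbours in this order did not overlap, but mESC shβcat #1 and OP-mESCs lay close, with 9.1% the lowest library of the former and 8.5% the highest of the latter. The order was not tested, since the smallest p of an exact permutation of 2 libraries against 2 is 0.33.

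**Figure D1:**
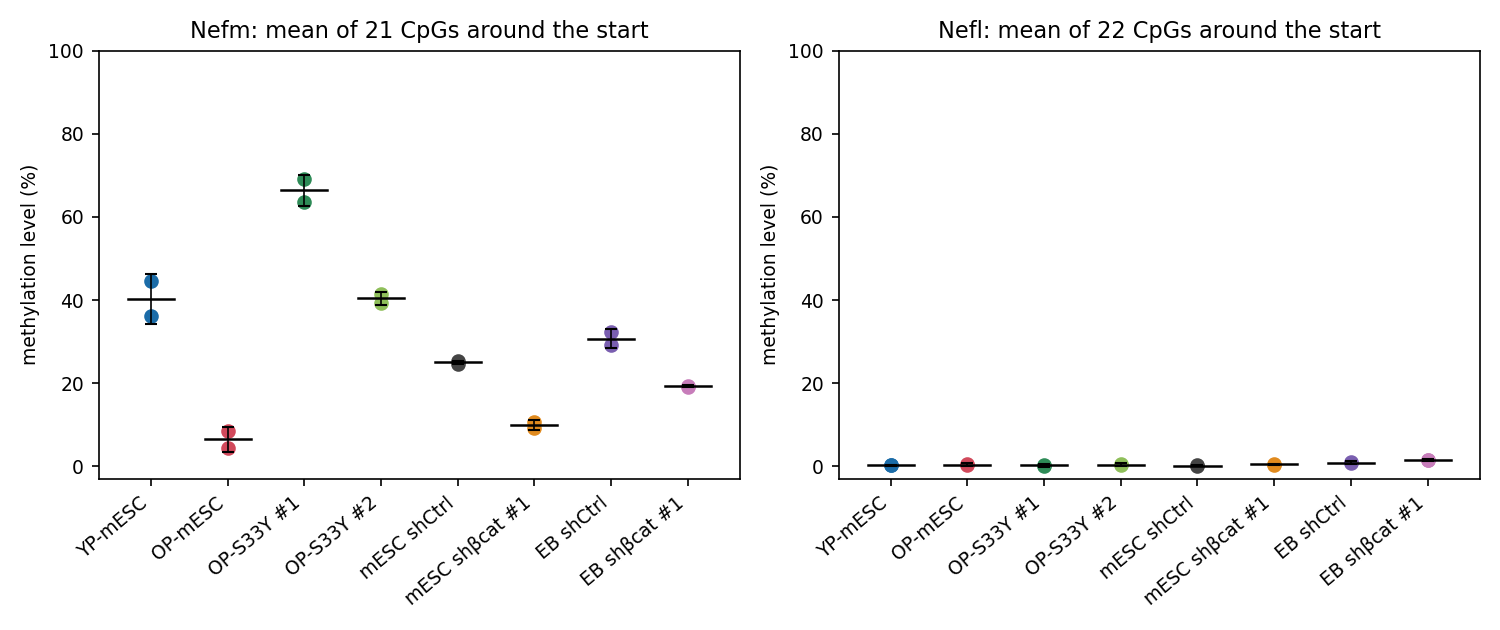
Methylation level (%) of the Nefm cluster (21 CpGs, left) and of the Nefl cluster (22 CpGs, right) in the 8 conditions. Each point is 1 library, the wide line is the mean and the error bar the SD of the 2 libraries. Nefm ranges from 4.4% to 69.1% over the libraries, and Nefl stays between 0.0% and 1.6%.

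In OP-mESCs all 21 CpGs of the Nefm cluster had a lower mean level than in YP-mESCs, by 14.6 to 53.2 points, and by 33.9 points on average. The difference was 42.3 points in the coding part of exon 1 (7.8% ± 4.7 against 50.1% ± 3.3) and 27.3 points upstream (5.8% ± 1.3 against 26.1% and 40.2%). Of the 21 CpGs, 16 were lower by more than 25 points, the limit used for a changed CpG in the study, and the background was 3.37% of 365703 CpGs. The region was chosen on this contrast, so the count is no test. The largest difference was at 297 bp into the gene (chr14:68742606), with 66.7% and 57.1% in YP-mESCs and 0.0% and 17.4% in OP-mESCs, read 33, 28, 12 and 23 times. The next were 46.0 points at 69 bp, 44.0 points at 53 bp, 42.7 points at 76 bp and 41.9 points at 319 bp, all in exon 1. Just past the limit stood the CpGs 61 bp and 105 bp upstream, with 26.8 and 28.8 points, and just short of it those 8 bp and 98 bp upstream, with 23.6 and 22.5 points. OP-mESC reads per CpG were few, from 10 to 56.

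In mESC shβcat #1 the same 21 CpGs all had a lower mean than in mESC shCtrl, by 4.1 to 26.4 points and 15.2 points on average. The difference was 19.0 points in exon 1 (11.3% ± 0.3 against 30.2% ± 1.9) and 11.0 points upstream (9.3% ± 2.5 against 20.3% ± 2.4). Only 1 of the 21 passed 25 points, with a background of 0.165% of 915436 CpGs. Over the whole genome the mean difference of this contrast was 1.25 points upward. Of the 98 CpGs of the region covered in these 4 libraries, 13 were lower by more than 25 points and none was higher. The largest differences lay outside the cluster, at the end of exon 1 and the start of intron 1. They were 45.1 points at 1116 bp into the gene (60.9% and 76.2% in mESC shCtrl, 22% and 25% in mESC shβcat #1), 36.1 points at 1126 bp, 35.7 points at 1118 bp, 34.7 points at 1030 bp and 34.5 points at 1124 bp. The CpGs next to the limit were at 1014 bp into the gene (25.6 points) and 525 bp upstream (25.1 points) on one side, and at 988 bp (24.5 points) and 65 bp (24.2 points) on the other. This contrast, too, chose the region.

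**Figure D2:**
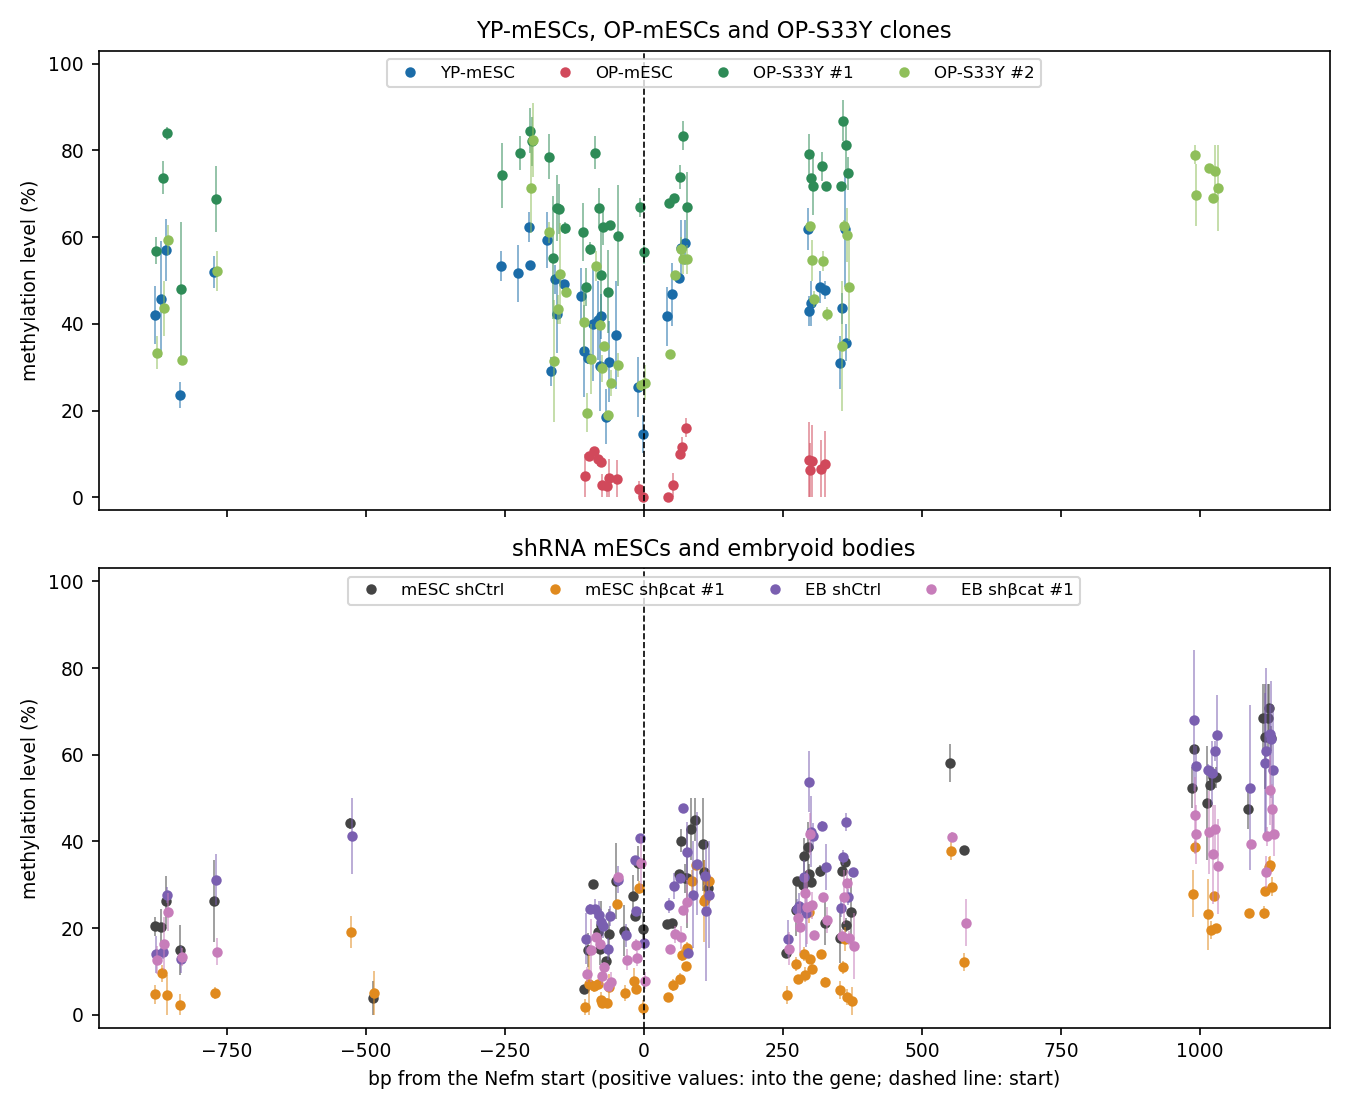
Methylation level (%) of each CpG against its distance in bp from the Nefm start (positive values lie in the gene). Points are means of the 2 replicates and vertical lines join the replicates. OP-mESCs lie below the other conditions in the upper panel and mESC shβcat #1 below mESC shCtrl at most CpGs in the lower panel.

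Both clones had been kept to old passage as OP-mESCs had, and both carried more methylation at Nefm than OP-mESCs. OP-S33Y #1 was higher by 59.9 points, with all 21 CpGs more than 25 points higher (background 3.37%), and OP-S33Y #2 by 33.9 points, with 15 CpGs past that limit (background 1.67%). Against YP-mESCs, OP-S33Y #1 was higher by 26.0 points, with 12 CpGs past the limit (background 0.518%). OP-S33Y #2 differed from YP-mESCs by 0.0 points, with 0 CpGs past the limit (background 0.322%). These comparisons share their YP-mESC or OP-mESC libraries with the contrast that chose the region and were not tested.

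The clones' libraries were not in the contrasts that chose the region, and the difference between them was tested. The clones derive from YP-mESCs, and the region was chosen with earlier results of these data known. In a binomial model of the reads with 1 overdispersion for the whole genome (Benjamini-Hochberg adjustment over 606966 CpGs), 7 CpGs of the region were called lower in OP-S33Y #2 than in OP-S33Y #1 and 0 higher, at an adjusted p under 0.05 and more than 25 points. Among all CpGs, 0.265% were called lower, 1608 CpGs against 144 higher, so the direction was also that of the genome. At an unadjusted p under 0.05, 36 of the 73 CpGs tested in the region were lower in OP-S33Y #2, 20 of them in the Nefm cluster of 21 CpGs, against a background of 3.95%. The background takes in CpGs of every level, also those near 0 with little room to fall, and was not matched to the level of Nefm. Neighbouring CpGs share reads and are not independent.

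Of the 7 CpGs called, 6 were in the cluster and 1 was further into exon 1. At the CpG 61 bp upstream (chr14:68742964), OP-S33Y #1 had 63.4% and 62.2%, and OP-S33Y #2 had 29.3% and 23.3% (adjusted p = 0.00076, binomial model). The CpG 8 bp upstream (chr14:68742911) had the largest difference, 69.0% and 64.7% against 25.6% and 26.1%, or 41.0 points (SE 8.0, adjusted p = 0.0021, binomial model). Both lie beside the start. In exon 1, the binomial model called 4 CpGs. The CpG at 327 bp (chr14:68742576) had 71.9% ± 0.6 against 42.3% ± 2.4 (binomial model, adjusted p = 0.0035). The CpG at 44 bp (chr14:68742859) had 68.9% and 66.7% against 32.7% and 33.3% (binomial model, adjusted p = 0.0045), and that at 69 bp (chr14:68742834) 83.3% ± 4.7 against 54.8% ± 4.7 (adjusted p = 0.025). The CpG at 354 bp (chr14:68742549) had 71.4% and 72.3% against 20% and 50%, the replicates of OP-S33Y #2 being far apart (binomial model, adjusted p = 0.035). The CpG 66 bp upstream (chr14:68742969) had 47.5% ± 13.7 against 18.9% ± 1.1 (binomial model, adjusted p = 0.041). The number of calls rested on all 4 libraries. It was 5 without OP-S33Y #1 replicate 1, 2 without OP-S33Y #1 replicate 2, 1 without OP-S33Y #2 replicate 1 and 3 without OP-S33Y #2 replicate 2, all lower in OP-S33Y #2.

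β-catenin silencing was also followed in embryoid bodies, whose libraries were not in the contrasts that chose the region. They carried the same hairpins as the stem cells whose difference chose it, so their difference is not independent of that choice. At Nefm, 20 of the 21 CpGs of the cluster had a lower mean in EB shβcat #1 than in EB shCtrl, and the level differed by 11.5 points (19.2% ± 0.3 against 30.7% ± 2.3). No CpG of the region was called in the binomial model, where 0.0153% of 824284 CpGs were called lower, nor with Fisher's exact test at the same limits. Only 2 of the 87 CpGs tested differed by more than 25 points, so few could be called. At an unadjusted p under 0.05 in the model, 28 of the 87 CpGs tested in the region were lower, 14 of them in the cluster, and 0 higher, against a background of 3.78%. Fisher's exact test gave 30 at that level in the region and 56502 in the genome, in either direction. These backgrounds, too, take in CpGs near 0 with little room to fall. Without a minimum difference, 1 CpG had an adjusted p under 0.05, against a background of 0.0512%. That count was 4 with Fisher's exact test, 4 at a minimum of 20 reads, 3 with the replicate number as a block, and 0 without any 1 of the 4 libraries. The CpG lies 303 bp into the gene (chr14:68742600), with 38.3% and 44.3% in EB shCtrl and 19.0% and 17.9% in EB shβcat #1, a difference of 22.8 points (SE 5.7, adjusted p = 0.033, binomial model). The next in p was the CpG at 69 bp, with 47.3% and 48.0% against 23.8% and 24.7% (23.4 points, SE 6.2, binomial model, adjusted p = 0.09). That CpG was also among those called between the clones.

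**Figure D3:**
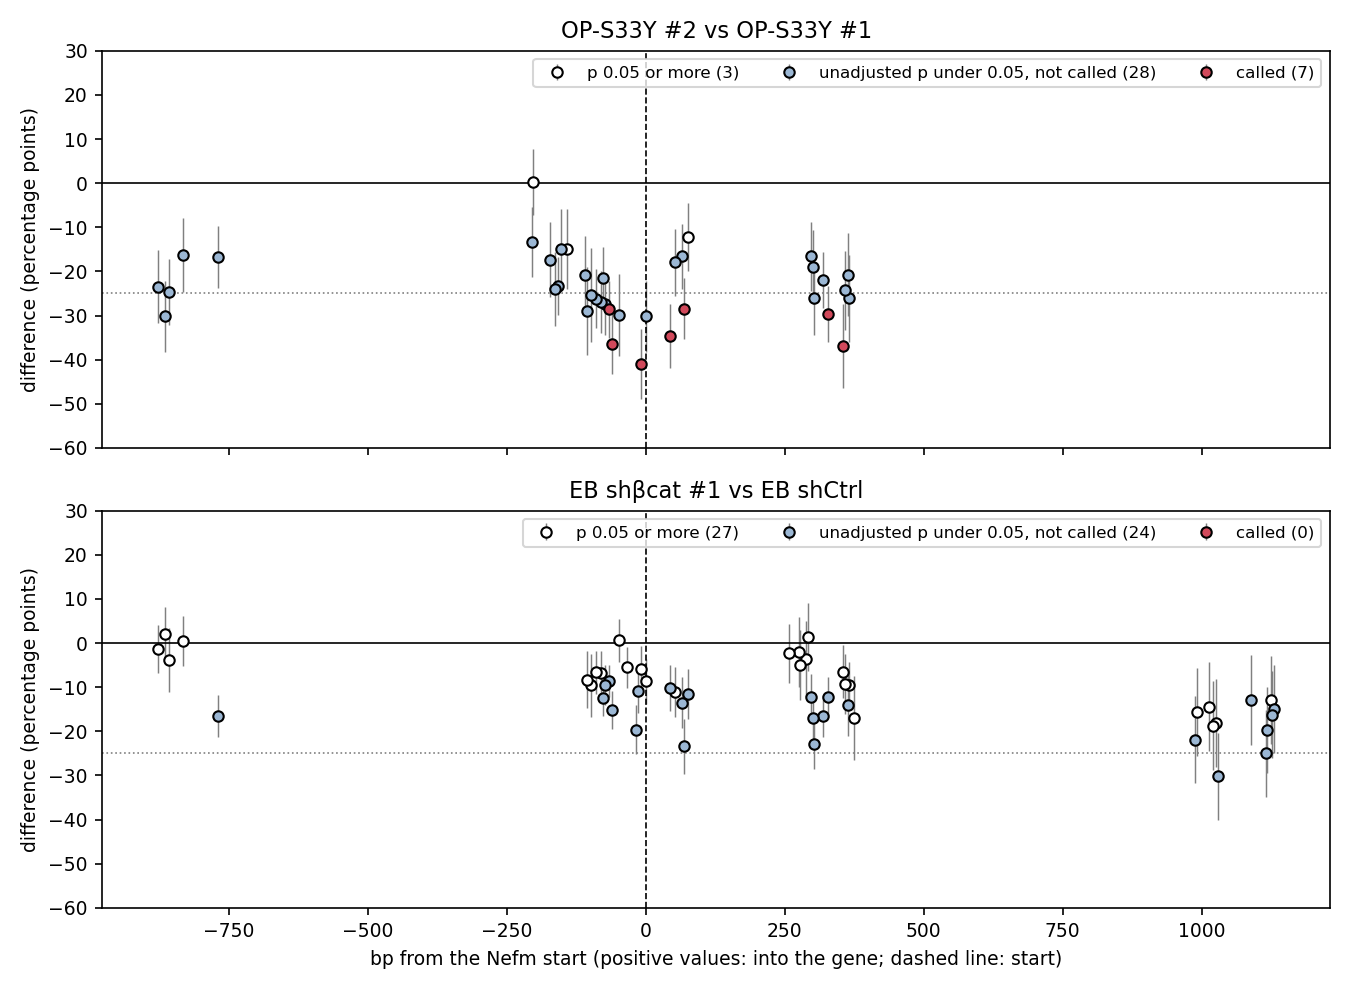
Difference in methylation level (percentage points) of each CpG against its distance in bp from the Nefm start, for OP-S33Y #2 against OP-S33Y #1 (top) and EB shβcat #1 against EB shCtrl (bottom). Error bars are SEs from the reads, the dotted line marks 25 points and filled red points were called. Of the points shown, 7 were called between the clones and 0 between the embryoid bodies, and most lie below 0 in both.

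Between stem cells and embryoid bodies the Nefm cluster differed by fewer points than between the hairpins of the stem cells. EB shCtrl was 5.7 points above mESC shCtrl, with 17 of 21 CpGs higher, and EB shβcat #1 was 9.4 points above mESC shβcat #1, with all 21 higher. The mean difference over the genome was 4.49 and 2.81 points. No CpG of the region was more than 25 points higher in either contrast, whereas 7.22% and 6.69% of CpGs in the genome were. The control hairpin line was made from YP-mESCs and also differed from them. Its passage number when measured is not given in the sources used here. mESC shCtrl was 15.3 points below YP-mESCs at Nefm, with 4 CpGs lower by more than 25 points (background 0.521%), while the genome mean was higher in mESC shCtrl. Transduction, culture and library preparation cannot be told apart in that difference. These contrasts share libraries with those that chose the region and were not tested.

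Within the cluster, some CpGs held a similar rank in most conditions. The CpG at 297 bp (chr14:68742606) ranked among the highest in every condition but OP-mESCs, with 83.8% and 74.4% in OP-S33Y #1 and 26.1% and 21.2% in mESC shβcat #1. That 66 bp upstream (chr14:68742969) ranked among the lowest in all 8, with 57.1% and 37.8% in OP-S33Y #1 and 3.95% and 1.56% in mESC shβcat #1. The CpG at the first transcribed base (chr14:68742903) was also low, from 0.0% in OP-mESCs to 56.7% in OP-S33Y #1. Pearson's r of the 21 levels between replicates was 0.62 to 0.91, except in OP-mESCs, where it was 0.05 over levels near 0. Between conditions it ranged from 0.1, for OP-mESCs and mESC shβcat #1, to 0.91, for mESC shβcat #1 and EB shβcat #1. The profile of mESC shβcat #1 had an r of 0.29 with YP-mESCs, 0.42 with OP-S33Y #1 and 0.28 with OP-S33Y #2, against 0.73 with mESC shCtrl, and that of OP-mESCs had 0.63 at most with any other condition. These r are descriptions over 21 CpGs, since neighbouring CpGs share reads. The shRNA libraries also covered CpGs near the start that the others did not. Whether this bears on r between these sets was not tested.

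A pair of upstream CpGs ranked higher in the shRNA libraries than in the others. At 8 bp upstream (chr14:68742911) mESC shCtrl had 39.0% and 30.9% and mESC shβcat #1 had 30.8% and 27.8%. At 48 bp upstream (chr14:68742951) the values were 22.0% and 39.7% against 25.9% and 25.3%. In mESC shβcat #1 these were the highest CpGs of the cluster, with means of 29.3% and 25.6%. In embryoid bodies the hairpins differed there by 5.8 points (SE 5.1) at 8 bp and by 0.6 points (SE 4.8) in the other direction at 48 bp. In OP-mESCs they were as low as the rest, at 3.7% and 0.0% for the first and 0.0% and 8.57% for the second. These CpGs were singled out after their values were seen. Between them, the CpGs 14, 17 and 33 bp upstream were covered in the 8 shRNA libraries and in no other. The shRNA libraries thus read DNA here that the others did not, and its part in the ranks was not tested.

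In the shRNA libraries the level was higher further along Nefm than at the start. At the end of exon 1 and the start of intron 1 (chr14:68741773-68741915), 12 CpGs were covered in the 8 shRNA libraries. Their mean was 56.7% and 61.3% in mESC shCtrl, and 26.4% and 28.7% in mESC shβcat #1. It was 49.8% and 70% in EB shCtrl, and 35% and 48.1% in EB shβcat #1. The stem cell groups were far apart, with a difference of 31.5 points, while the embryoid body replicates spread widely, with 59.9% ± 14.3 against 41.5% ± 9.2. In the test of the embryoid bodies, the CpGs 1116 bp and 1030 bp into the gene had the largest differences of the region, 25 points (SE 9.8) and 30.2 points (SE 9.8), with adjusted p of 0.19 and 0.28 in the binomial model, and neither was called.

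Upstream, 5 CpGs lay 770 to 877 bp before the start (chr14:68743673-68743780) and were read in 15 libraries. Their mean was 49.6% and 38.5% in YP-mESCs, and 7.3% in OP-mESC replicate 1. OP-S33Y #1 had 71.3% and 61.2%, and OP-S33Y #2 had 42.9% and 45.1%. In mESC shCtrl it was 19.9% and 23.4% and in mESC shβcat #1 2.7% and 7.8%. In embryoid bodies it was 21.0% and 19.0% in EB shCtrl and 16.1% and 16.2% in EB shβcat #1. The CpG 770 bp upstream (chr14:68743673) stood apart from the other 4 there, with 25.4% and 37.0% against 17.8% and 11.4%, a difference of 16.6 points (SE 4.8, adjusted p = 0.1 in the binomial model and 0.042 with Fisher's exact test). The mean of EB shβcat #1 was thus 10.9 points above that of mESC shβcat #1, and EB shCtrl 1.6 points below mESC shCtrl.

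Away from the start most CpGs read were highly methylated, but not all. A CpG in the coding part of Nefm exon 3 (chr14:68738771), 4132 bp into the gene, had 79.8% to 100.0% in the 15 libraries that covered it. At 3 intergenic CpGs 4578 to 4682 bp upstream (chr14:68747481-68747585) the mean was 86.4% to 95.6% in 12 libraries. It was lower in OP-mESC replicate 1, at 70.8%, and in both EB shβcat #1 libraries, at 75.2% each, against 94.0% and 93.9% in EB shCtrl. None of these 3 CpGs was called in the embryoid bodies, with adjusted p of 0.46, 0.36 and 0.34 in the binomial model. In the few libraries that covered them, some other intergenic CpGs had less. The CpG at chr14:68753523 had 25% to 47.1% in 6 libraries, that at chr14:68753503 had 43.5% to 90.9% in the same number, and that at chr14:68696784 had 30% to 80% in 5.

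Nefl was close to unmethylated in every condition. Its cluster of 22 CpGs had condition means of 0.1% to 1.5%, the highest in EB shβcat #1 (1.5% ± 0.2) and EB shCtrl (0.9% ± 0.3). The lowest library, mESC shCtrl replicate 2, had 0 methylated of 1444 reads, which allows a level of up to 0.208%, and the highest, EB shβcat #1 replicate 1, had 26 of 1706 (1.52%, Wilson 95% interval 1.04 to 2.22%). Such intervals cover counting error only, and a read is counted at every CpG it spans. OP-mESCs and YP-mESCs differed by 0.06 points and the mESC hairpins by 0.32 points. The 5 largest falls at Nefl were 0.4 to 2.4 points in OP-mESCs against YP-mESCs (chr14:68702126, 68702103, 68702151, 68702133 and 68702037). In mESC shβcat #1 against mESC shCtrl they were 0.7 to 2.9 points (chr14:68701909, 68701914, 68701886, 68701911 and 68702156). Other CpGs rose. Within the cluster, 5 were lower and 4 higher in OP-mESCs, from −2.4 to 2.5 points. In mESC shβcat #1, 3 were lower and 10 higher, from −0.7 to 1.6 points. Of the 22 CpGs, the binomial model called 0 in either tested contrast, and 0.289% of all CpGs between the clones and 0.0611% between the embryoid bodies. At an unadjusted p under 0.05 the count was 0 as well, with backgrounds of 5.25% and 7.22%, and Fisher's exact test called 0. With so low a background, a count of 0 called says nothing particular about Nefl. The 6 CpGs upstream of the gene had a mean of 0.0% to 2.2% in 15 libraries, with 13.3% the highest single value, in EB shCtrl replicate 2.

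The promoters of other neuronal and intermediate filament genes were mostly low in methylation. From a list of 20 such genes, 10 had at least 3 CpGs read in all libraries in the window from 1000 bp before to 500 bp after the start. Nefh, the heavy neurofilament chain, had 0.8% ± 0.2 in YP-mESCs, 0.5% ± 0.2 in OP-mESCs and 5.8% ± 0.3 and 7.0% ± 2.4 in EB shCtrl and EB shβcat #1. Ina, which encodes α-internexin, and the tau gene Mapt had at most 1.3% and 1.1% in any library. Prph, the peripheral neuron filament peripherin, went from 2.1% ± 0.1 in OP-mESCs to 13.2% ± 0.1 in EB shβcat #1. Des, the muscle filament desmin, and Eno2, the neuronal enolase, had the highest levels of the list, with condition means of 40.8% to 67.4% and 26.6% to 49.7%.

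The spread of condition means was 59.9 points at Nefm, 26.6 points at Des, 23.1 points at Eno2 and 21.2 points at Pax6, a neural progenitor factor. Counting also promoters covered only in the libraries of a contrast, 0 of 11 were lower by more than 25 points in OP-mESCs than in YP-mESCs, where 0.394% of 9642 promoters were. In mESC shβcat #1 against mESC shCtrl the count was 0 of 11 (background 0.00794%), in OP-S33Y #2 against OP-S33Y #1 0 of 12 (background 0.0263%) and in EB shβcat #1 against EB shCtrl 0 of 11 (background 0.00812%). Of the list genes read in all libraries, only Des and Eno2 had condition means above 25%, so the others had little room for such a fall. With backgrounds this low, a count of 0 says nothing particular about the list. The median difference of the list was −0.21 points in the first contrast and 0.1 points in the second, beside −0.01 and 0.09 points over all promoters.

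**Figure D4:**
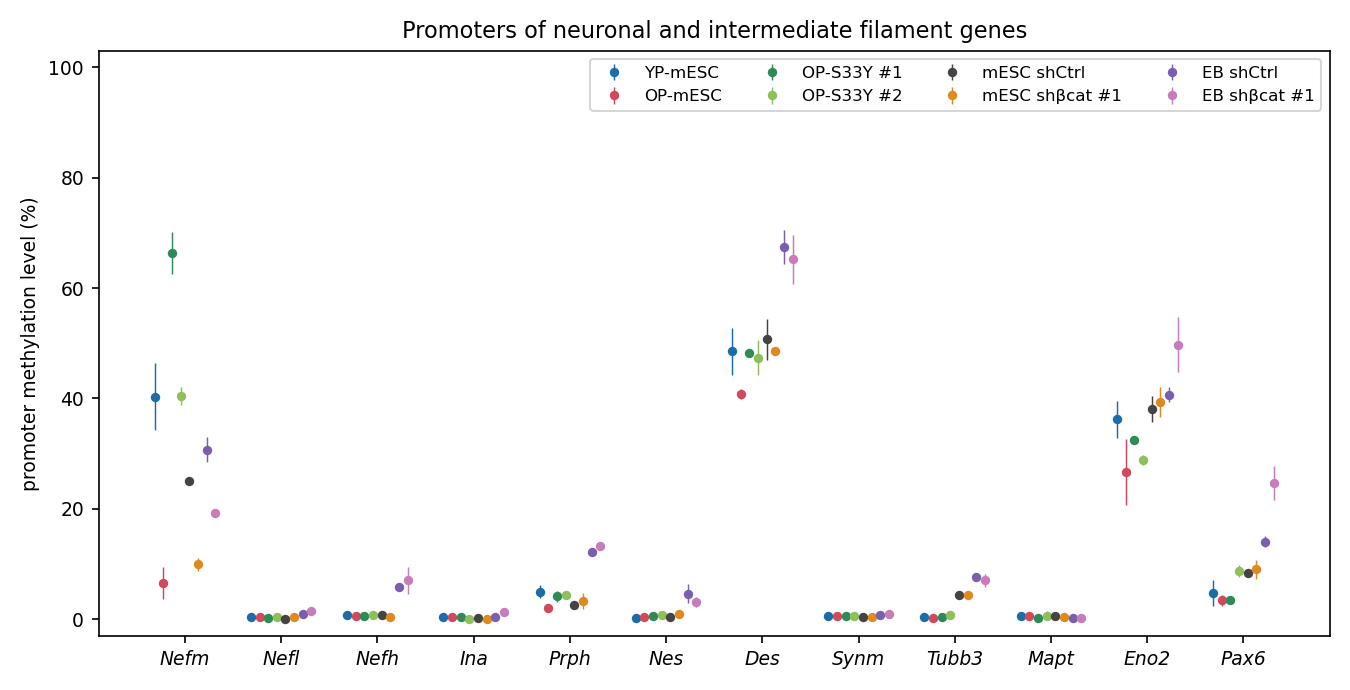
Promoter methylation level (%) of Nefm, Nefl and the 10 measured genes of the list in the 8 conditions, as mean and SD of the 2 libraries. Nefm has the widest spread of condition means, 59.9 points, while Nefl, Ina, Synm and Mapt stay near 0.

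The Nefm pattern over the conditions was set beside that of other parts of the genome. Among 18544 windows of 1 kb with at least 5 CpGs in all libraries, 17.9% had condition means that spanned 25 points or more. The Nefm window spanned 61.4 points, and 456 windows spanned more. Only 1 window outside the region had a Pearson's r with Nefm of 0.9 or more over the 8 conditions. It lies on chromosome 7, 30354 bp from Mrgprb5, with r = 0.913 over 6 CpGs, and went from 38.9% in OP-S33Y #1 and 35.2% in YP-mESCs to 8.7% in OP-mESCs and 7.0% in mESC shβcat #1. The next were windows near Dlx1 (0.723), near Zbtb10 (0.708), at Crlf2 (0.684) and near Sipa1l1 (0.667). In these, mESC shβcat #1 was at or above mESC shCtrl in 3 of the 4, with 34.8% against 26.0% at Crlf2. The r is a description over 8 conditions that share a cell line.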

How the data were processed

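RRBS was performed on 16 libraries of 8 conditions, prepared with the NuGEN Ovation RRBS kit. The authors trimmed reads (Trim Galore 0.2.8), aligned them to mm9 (Bismark 0.7.9; base calling CASAVA 1.8.2) and deposited a read count and a percent methylated for each CpG cytosine, unnormalized and per replicate. Every cytosine has at least 10 reads. The enzyme and duplicate handling are not given in the sources used here; duplicates would make reads less independent.

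Methylated reads were recomputed (whole within 1.4e-07) and strands summed. All 48198 covered chromosome 14 CpGs were CG in the mm9 reference. A cluster joins CpGs read in all 16 libraries less than 500 bp apart, and its level is the mean over CpGs. Single CpGs were compared with a binomial likelihood-ratio chi-square test with shared overdispersion (1.17 for the clones, 1.21 for the embryoid bodies), two-sided, and called at an adjusted p under 0.05 and over 25 points. The test was tried on simulated reads first. Of 100 CpGs changed by 35 points it recovered 45.0% for the clones and 47.0% for the embryoid bodies. At 60 points it recovered 99.0% and 100.0%. Named CpGs were all those called, the 5 largest falls per gene in the contrasts that chose the region and those beside 25 points. Other CpGs were named after their values were seen. The region, its members and the gene list were chosen with earlier results of these data known. The software was scipy 1.17.1, numpy 2.4.6, numba 0.67.0 and pandas 2.3.3 under Python 3.11.15. Alternatives were other read minimums, separate strands, a coverage cap, no minimum difference, Fisher's exact test, a replicate block, other CpG sets and left-out replicates. Some sequences of the region are not reported here.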

Additional observations from a re-analysis of the deposited data

Results flagged for a closer look

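The OP-S33Y clones had the same construct and were both kept to old passage, and yet differed at Nefm by a test of the difference itself. Against YP-mESCs the cluster was 26.0 points higher in OP-S33Y #1 and 0.0 points apart in OP-S33Y #2. In the binomial model, 6 of the cluster's 21 CpGs were called lower in OP-S33Y #2 than in OP-S33Y #1. The background was 0.265% of 606966 CpGs, and 1608 of the 1752 calls in the genome were also lower. The clones are 1 line each, so what set them apart was not tested. No condition had enough libraries to look for single outlying samples.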

How the results depend on the processing

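The region's count of CpGs called between the clones was 7, beside 1752 in the genome. With the cytosines of the strands tested separately, where each cytosine has fewer reads, it was 2, beside 470. With Fisher's exact test it was 12, beside 2094. Leaving out 1 library gave 1 to 5. Between the embryoid bodies it was 0, beside 504 in the genome, and 1, beside 1080, with no minimum difference. It was 0 without each library in turn. With the replicate number as a block, the counts were 7 for the clones and 0 for the embryoid bodies, beside 1897 and 820 in the genome. The labels do not say that a number marks a shared batch, and the deviations of same-numbered libraries correlated at r = 0.005 between the clones and 0.053 between the embryoid bodies. All calls kept the direction, lower in OP-S33Y #2.

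The Nefm difference of OP-mESCs from YP-mESCs was −33.9 points, and −24.8 at a minimum of 20 reads, which left 4 CpGs, and −28.6 on the reverse strand. It was −38.1 to −29.6 with 1 library left out. That of mESC shβcat #1 from mESC shCtrl was −15.2 points, and −18.6 over the 61 CpGs covered in these 4 libraries, −16.1 at 20 reads, −16.7 on the forward and −11.4 on the reverse strand. It was −16.0 to −14.3 with 1 library left out. At Nefl, the differences were 0.06 points, and −0.32 on the forward strand, and 0.32 points, and 0.05 over the 31 CpGs covered in the 4 libraries. They were −0.14 to 0.26 and 0.16 to 0.49 with 1 library left out. The causes of these shifts were not tested. Depth limits the region most in OP-mESCs, whose cluster CpGs had as few as 10 reads.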
